A study of Mus musculus with 8 samples.

Results

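The genes described here encode 9 cytokine receptor chains of tumour-infiltrating OT-I T cells, namely Il2ra, Il2rb, Il2rg, Il7r, Il21r, Il10ra, Il12rb2, Il18r1 and Ifngr1. They were chosen by name, all 9 were found among the 32285 genes of the count matrices, and each passed every filter on low counts used below. CROP-seq, in which the guide RNA and the transcriptome of the same cell are read, was run on 4 10x Genomics channels, each with a gene expression and a guide library. The cells were CD8+ T cells of OT-I:Rosa26-Cas9 mice on a Rag2/OT-I background, which recognise ovalbumin and carried a lentiviral library of guides against metabolic genes. They had been activated with CD3/CD28 beads and cultured with IL-2, IL-7 and IL-15 before transfer into Rosa26-Cas9 mice with orthotopic KPC_OVA tumours, a pancreatic ductal adenocarcinoma line that expresses ovalbumin. CD90.1+ OT-I cells were sorted from the tumour 7 days after transfer. Recipients of 3 libraries (aPD-1 replicates 1, 2 and 3) had received anti-PD-1 and recipients of 1 library (IgG) a control antibody. Transduced, Cas9-expressing cells were thus present in both groups. Per the study's methods the mice were young adults, and each treatment had several recipients over a pair of experiments, but neither the labels nor the methods say which animals went into which library, so that n counts libraries and p-values measure only the spread between them, which may be technical.

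Cells with exactly 1 called guide were used, and 23059 of 23805 such cells passed the limits on UMIs (unique molecular identifiers, 1 per captured transcript) and mitochondrial reads. The aPD-1 libraries kept 2535, 2597 and 6432 cells in replicates 1, 2 and 3, with medians of 16829, 16325 and 12084 UMIs per cell, and the IgG library kept 11495 cells with a median of 6329 UMIs. Cd3e, Cd8a and Cd8b1 were each at 564 CPM (UMIs per 1e+06 UMIs of a library) or more in every library, which fits the sorted identity. Trac, the T cell receptor alpha constant gene, was at 1918 and 1769 CPM in aPD-1 replicates 1 and 2 but at 798 and 700 CPM in replicate 3 and IgG, so that these pairs of libraries stood apart from each other across treatment. The titles of replicates 1 and 2 share 1 stem. Cd4 and Foxp3 together stayed at or below 1.24 CPM. Only 24 cells had 10 or more UMIs of markers of B, myeloid, epithelial, stromal, endothelial or CD4 T cells, although 1 of them held 97.15% of such B cell UMIs in replicate 3.

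Cytokine receptors act as assemblies of shared and private chains. Il2ra encodes the alpha chain that raises the affinity of the IL-2 receptor, Il2rb the signalling chain shared by IL-2 and IL-15, and Il2rg the common gamma chain, which also serves the IL-7 receptor (with Il7r) and the IL-21 receptor (with Il21r). These receptors signal through JAK1, JAK3 and STAT proteins. Il10ra binds the regulatory cytokine IL-10, whereas Il12rb2, Il18r1 and Ifngr1 are the ligand-specific or ligand-binding chains for IL-12, IL-18 and interferon-gamma. In CD8+ T cells, IL7R is a familiar mark of memory potential and the IL-2 receptor alpha chain a mark of recent or strong activation.

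The members lie on 8 chromosomes of the mouse genome (GRCm38, GENCODE M21 annotation, 1-based), and Il7r (chr15:9505788-9530176, minus strand) and Il2rb (chr15:78479256-78495271, minus strand) share chromosome 15. Il12rb2 spans chr6:67291318-67376188 on the minus strand and Il2ra chr2:11642807-11693193 on the plus strand. Windows from 250 bases before to 50 bases after a transcription start were taken from RefSeq for GRCm38.p6 and held 9 starts of 7 members, all but Il2rb and Il10ra. The windows of Il7r (chr15:9529827-9530126) and Il12rb2 (chr6:67376139-67376438), both on the minus strand, are shown because this pair had the highest ratio of cells with both genes to the number for independent genes, as given below. Capitals mark a match to TTCNNNGAA, the STAT motif, which reads the same on both strands.
Il7r: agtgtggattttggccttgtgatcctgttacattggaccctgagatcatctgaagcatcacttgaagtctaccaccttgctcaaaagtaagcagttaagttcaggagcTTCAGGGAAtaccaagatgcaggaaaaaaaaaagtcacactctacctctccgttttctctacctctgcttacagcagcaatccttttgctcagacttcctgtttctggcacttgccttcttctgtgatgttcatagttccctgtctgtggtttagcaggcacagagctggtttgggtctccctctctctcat
Il12rb2: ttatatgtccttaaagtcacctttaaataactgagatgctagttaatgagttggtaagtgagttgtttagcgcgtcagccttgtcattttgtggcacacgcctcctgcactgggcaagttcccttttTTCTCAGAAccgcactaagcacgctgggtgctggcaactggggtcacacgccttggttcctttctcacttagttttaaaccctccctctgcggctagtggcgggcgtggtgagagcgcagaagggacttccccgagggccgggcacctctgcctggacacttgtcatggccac
The match lay 142 bases before the RefSeq start in Il7r and 123 bases before it in Il12rb2. For Il7r this start lies downstream of the first base of the GENCODE gene, so that the window falls inside the gene span given above. Il18r1 had matches at 1 of its 3 starts, which gives 3 of 9 member starts against 8.3% of the 32851 windows of all genes. Of 6 other motifs searched on both strands, TGTGGT (RUNX) was in windows of Il18r1, Il21r, Il2rg and Il7r, 4 of 9 starts against 16.8% of all windows, and GTAAACA (forkhead) in that of Il21r, against 3.65%. TGANTCA (AP-1, in 7.81% of all windows), TCACACCT (T-box, 1.28%), the NF-kB motif (0.411%) and CTTTGAT (TCF, 3.73%) were in none of the 9. A match is a string of letters and no measured binding.

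To ask how the receptors stood under each treatment, UMIs were summed over all cells of a library. Among the IL-2 receptor chains, Il2rb was at 444, 408 and 414 CPM in aPD-1 replicates 1, 2 and 3 and at 339 CPM in IgG, so that IgG lay below all 3. Il2ra was at 77.0, 67.9 and 63.0 CPM with aPD-1 and 69.9 CPM with IgG, and Il2rg at 186, 183 and 226 CPM against 197 CPM. For both of these chains IgG fell within the aPD-1 values. Il21r was at 142, 129 and 109 CPM with aPD-1 and 90.8 CPM with IgG, with IgG lowest. Il7r gave the opposite order, with 20.9, 16.9 and 38.5 CPM under aPD-1 and 50.4 CPM under IgG. For Il7r and Il21r the levels in replicate 3 and IgG were nearer to each other than to replicates 1 and 2, the same split as for Trac.

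Of the remaining receptors, Il10ra was at 38.4, 36.9 and 41.6 CPM with aPD-1 and 31.0 CPM with IgG. Ifngr1 was at 278, 262 and 283 CPM against 237 CPM. In both genes IgG was below each aPD-1 library. Il12rb2 was at 10.2, 8.16 and 12.6 CPM against 9.88 CPM and Il18r1 at 94.9, 80.7 and 74.1 CPM against 82.2 CPM, with IgG inside the aPD-1 range. IgG thus lay below all aPD-1 libraries for 4 of 9 members, where 22.0% of all 13810 genes did so, and above them for Il7r, where 23.9% of all genes did so.

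**Figure D1:**
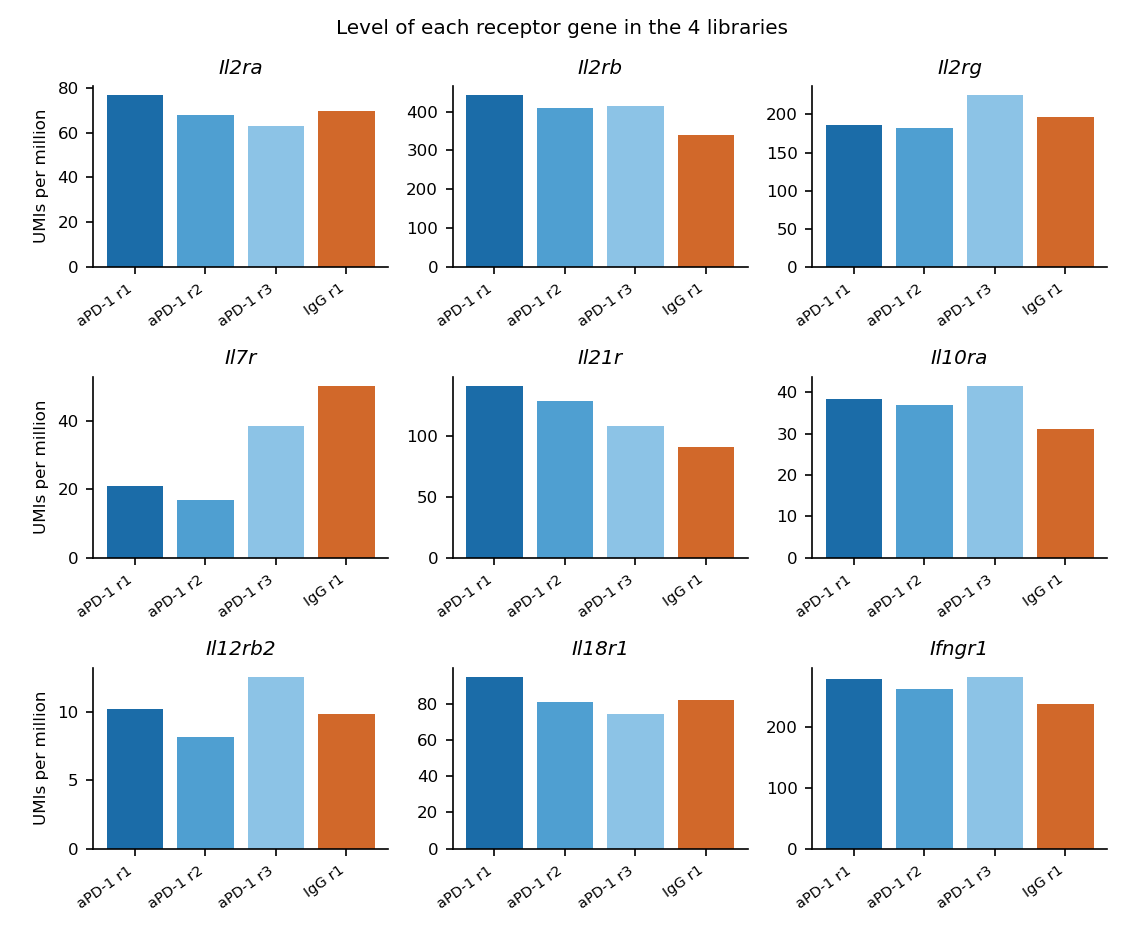
Level of each receptor gene in UMIs per 1e+06 UMIs (CPM) over all kept cells, 1 panel per gene and 1 bar per library, on axes that start at 0. The IgG bar is the highest for Il7r and the lowest for Il2rb, Il21r, Il10ra and Ifngr1.

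With edgeR's quasi-likelihood test on these sums, none of the 9 members passed an adjusted p of 0.05, as did none of the 13810 genes tested (0.0%). At an unadjusted p under 0.05 there were 282 genes, and DESeq2 called 5. The aPD-1 minus IgG difference was -0.97 ± 0.42 (SE, log2) for Il7r, 0.49 ± 0.19 for Il21r, 0.34 ± 0.13 for Il10ra, 0.33 ± 0.12 for Il2rb and 0.22 ± 0.12 for Ifngr1, with edgeR's adjusted p at 0.987 for each. Il2ra, Il2rg, Il12rb2 and Il18r1 differed by less than 0.08 on the log2 scale. An exact permutation test of 3 libraries against 1 cannot give a p below 0.25. The result depended on aPD-1 replicate 3. Without it, 24.9% of 13327 genes were called, and Il7r (-1.40, edgeR adjusted p = 3.46e-43), Il21r (0.60, 3.41e-06), Il10ra (0.30, 0.0186) and Il2rb (0.35, 0.0246) were among them, whereas Ifngr1 (0.21, 0.207) was not. The spread in that fit comes from replicates 1 and 2 alone, whose shared title stem does not say whether they were separate pools of animals, so that these p-values may rest on technical spread. With a term for the title stem that replicates 1 and 2 share, 2.05% of genes were called, and Il7r (-0.39, adjusted p = 0.0308) and Il10ra (0.42, adjusted p = 0.0183) were the members among them. That fit sets replicate 3 alone against IgG, and its spread again comes from replicates 1 and 2 alone, so the same limit holds. Replicate 3 and IgG also have different title stems, and library set and treatment cannot be told apart.

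To compare the share of cells with a receptor at 1 depth, each cell was thinned to 2000 UMIs, which left out 163 shallower IgG cells. At this depth Il7r was found in 3.59% of cells in replicate 1 (exact 95% interval 2.90 to 4.39), 2.93% in replicate 2 (2.31 to 3.65), 6.86% in replicate 3 (6.25 to 7.5) and 8.70% in IgG (8.19 to 9.24). Before thinning these shares were 16.2%, 14.3%, 23.2% and 21.1%. Il2rb was found in 57.0%, 51.6% and 55.2% of thinned aPD-1 cells and in 47.8% of IgG cells, against 97.9%, 96.2%, 94.7% and 81.7% before thinning. Il12rb2 was seen in 1.74%, 1.27% and 2.50% of thinned aPD-1 cells and 1.95% of IgG cells, against 13.3%, 10.3%, 13.1% and 6.2% before thinning. Intervals cover counting error only, and no cell type that lacks these receptors was sorted, so that the share from free RNA was not measured.

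To place the receptors among T cell states, the cells were clustered without the members or the other cytokine genes among the variable genes. Of 9 clusters, 7 had 20 or more cells in every library. They were granzyme-like (cluster 0, 7705 cells, led by Gzmc), G1/S-like (cluster 1, 3959 cells), a cluster led by histone genes (cluster 2, 3363 cells), effector cytokine-like (cluster 3, 2534 cells, led by Xcl1 and Ifng), precursor-like (cluster 4, 2405 cells, led by Ccr7 and Tcf7), G2/M-like (cluster 5, 1865 cells) and memory and egress-like (cluster 6, 751 cells, led by Klf2 and S1pr1). Cluster 7 (332 cells, led by Gm42418) was left unnamed. All 6 markers of the G2/M list given below were higher in it than in the other cells. Their median fold was 2.39 there and 2.45 in cluster 5. Cluster 8 (145 cells) was interferon response-like. Clusters 7 and 8 had under 20 cells in aPD-1 replicates 1 and 2, and the highest and lowest clusters below are those among the other 7. Precursor markers were raised in cluster 6 as well as in cluster 4, with 5 of the list higher in each. Their median folds over the other cells were 2.58 and 2.10, so these markers alone do not set cluster 4 apart from cluster 6. Levels across clusters are a description, since the clusters were made from the same cells.

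The receptor chains peaked in different clusters. Il2ra was highest in the effector cytokine-like cluster, at 129, 122, 113 and 103 CPM in aPD-1 replicates 1, 2, 3 and IgG, and lowest in the memory and egress-like cluster, at 15.5, 14.2, 12.8 and 14 CPM. These values did not overlap, and their means differed 8.30-fold, the widest span of the 9 genes. Outside the 7 clusters, the unnamed cluster 7 had Il2ra at 166 CPM (aPD-1 replicate 3) and 230 CPM (IgG), and its cells had a median UMI count of 0.406 and 0.377 of those libraries' medians. Il7r had the reverse order for the same pair of clusters, with 37.8, 49.4, 105 and 77.6 CPM in the memory and egress-like cluster and 11.8, 10.5, 14.9 and 17.6 CPM in the effector cytokine-like cluster. The second highest mean of Il7r was in the granzyme-like cluster, with 28.1, 20.5, 49.2 and 72.7 CPM. Ifngr1 followed Il7r, with 550, 471, 492 and 430 CPM in the memory and egress-like cluster against 150, 150, 166 and 126 CPM in the effector cytokine-like cluster, whose second leading gene was Ifng. Il18r1 was also highest in the memory and egress-like cluster, at 149, 108, 136 and 138 CPM, and lowest in the G1/S-like cluster, at 75.2, 57.6, 52.9 and 66.3 CPM. It was also high in the precursor-like cluster, at 136, 102, 104 and 114 CPM. The ranges of these clusters over libraries overlapped, but within every library the memory and egress-like cluster was the higher. With finer clusters (resolution 0.5) Il18r1 no longer had its highest cluster in common with Il7r and Ifngr1.

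Il2rb, in contrast, peaked in the granzyme-like cluster, at 499, 478, 493 and 435 CPM, with cluster 7, outside the 7, at 526 CPM (aPD-1 replicate 3) and 437 CPM (IgG). It was low in the effector cytokine-like cluster, at 313, 292, 279 and 219 CPM, and in the memory and egress-like cluster, at 322, 281, 254 and 251 CPM, and these values overlapped. Il12rb2 shared the granzyme-like peak, at 12.8, 11.2, 16.2 and 16.1 CPM, and was lowest in the precursor-like cluster, at 2.99, 4.47, 8.17 and 3.62 CPM. Outside the 7, Il12rb2 in aPD-1 replicate 3 and IgG was at 13.9 and 16.6 CPM in cluster 7. In cluster 8 it was at 19.9 and 3.02 CPM. With the finer clusters Il2rb and Il12rb2 parted, as Il12rb2 was highest at 14.5 CPM in the cluster where Il2ra peaked. Il21r was highest in the precursor-like cluster, at 182, 153, 134 and 111 CPM. The effector cytokine-like cluster stood beside it at 178, 150, 133 and 107 CPM. It was slightly lower within every library, by less than the spread between libraries. Cluster 7, outside the 7, had Il21r at 173 CPM (aPD-1 replicate 3) and 178 CPM (IgG), above the precursor-like cluster of both libraries. The memory and egress-like cluster was lowest for Il21r, at 59.5, 53.1, 57.7 and 60.2 CPM. Il10ra was highest in the precursor-like cluster, at 48.2, 39.5, 60.8 and 38.4 CPM, with the granzyme-like cluster overlapping it at 42.4, 46.3, 47.0 and 37.5 CPM. The interferon response-like cluster 8, outside the 7, had higher values in both libraries with enough cells, 88.9 CPM (aPD-1 replicate 3) and 103 CPM (IgG). The common gamma chain Il2rg was the most even over the 7 clusters, with its highest and lowest differing 1.33-fold, although in IgG it was at 110 CPM in cluster 7 and 312 CPM in cluster 8.

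**Figure D2:**
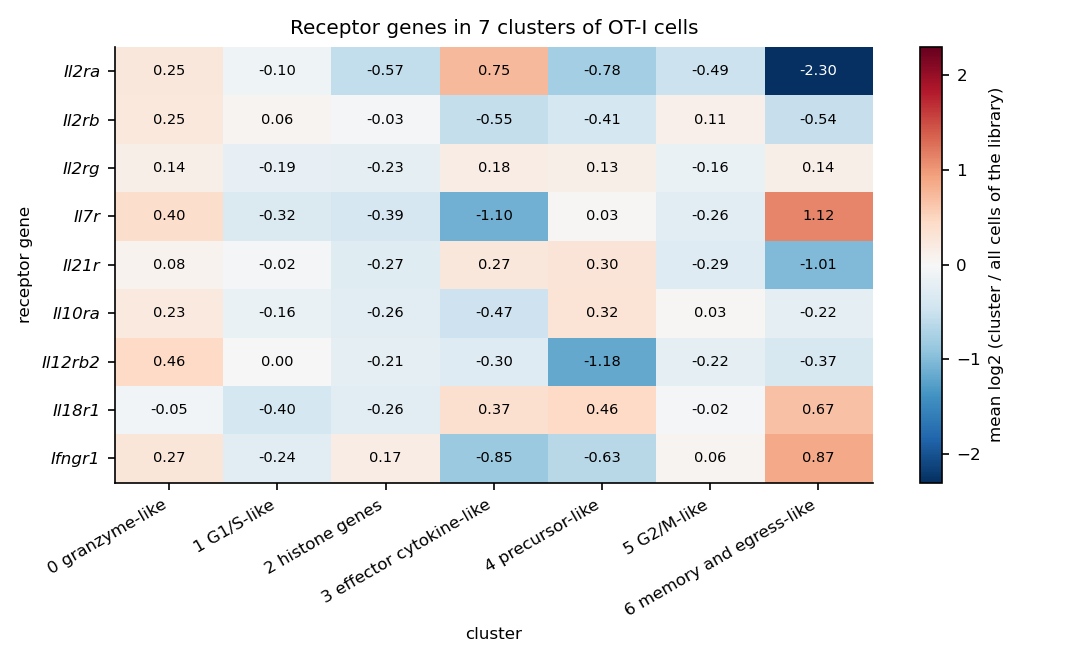
Heat map of receptor genes (rows) in 7 clusters (columns), as log2 of the CPM in a cluster over the CPM of all cells of the library, averaged over the 4 libraries. Il2ra is highest in the effector cytokine-like cluster and lowest in the memory and egress-like cluster, Il7r and Ifngr1 show the reverse, and Il2rg stays closest to 0.

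Within clusters, the treatment order of Il2rb was the same throughout. Its level in IgG was below all 3 aPD-1 libraries in each of the 7 clusters, which 1.53% of 13810 genes also did. In the effector cytokine-like cluster, for example, it was at 219 CPM in IgG and at 295 CPM ± 16.8 (SD, n = 3) with aPD-1. Il7r in IgG was above all aPD-1 libraries in 6 of 7 clusters, where 4% of all genes were above in at least 6, and inside their range in the memory and egress-like cluster. In the precursor-like cluster it was at 57.7 CPM in IgG and 23.9 CPM ± 6.31 (SD, n = 3) with aPD-1. Il21r and Il10ra in IgG were below all aPD-1 libraries in 6 of 7 clusters, where 4.27% of all genes were below in at least 6. In the memory and egress-like cluster both were above them instead, at 60.2 CPM against at most 59.5 CPM for Il21r and 43.6 CPM against at most 35.2 CPM for Il10ra. Ifngr1 was below in 5 clusters, where 8.67% of all genes were below in at least 5, and inside their range in the other two. These orders share the single IgG library and were not tested.

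Clusters cannot be tested on the cells that made them, so cells were also ranked by the mean of fixed marker lists that hold none of the 9 members. The highest 10% of each library by a score (score-high cells) was compared with the other cells of that library by edgeR with the library as a block. Over 8 scores and 9 members, 47 of 72 tests passed an adjusted p of 0.05, where 11.7% to 44.2% of all genes did so in a single score. A score-high class is a range of a score and not a cell type, and 28.3% of precursor-high cells were also memory-high.

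In cells high for the effector cytokine score (Ifng, Tnf, Ccl3, Ccl4, Csf2), 8 of 9 members differed, 4 higher and 4 lower, where 36% of all genes were called. Il2ra was at 154, 170, 113 and 116 CPM in high cells of aPD-1 replicates 1, 2, 3 and IgG and at 67.8, 55.4, 57.0 and 64.4 CPM in the other cells. The groups did not overlap, and Il2ra rose by 1.25 ± 0.088 (SE, log2, adjusted p = 2.28e-08). Il18r1 (0.40), Il21r (0.27) and Il2rg (0.22) rose by less, and in sgNT cells alone, those with a nontargeting guide, Il21r (adjusted p = 0.281) and Il2rg (0.196) were not called. Ifngr1 was at 179, 147, 219 and 171 CPM in high cells and 290, 276, 291 and 245 CPM in the others, a fall of -0.52 ± 0.055 (adjusted p = 1.90e-06). Il10ra (-0.36) and Il2rb (-0.19) also fell. The call for Il7r (-0.45, adjusted p = 0.00586) was lost without IgG (0.0737), without aPD-1 replicate 3 (0.120) and with DESeq2 (0.326). Among the ligands, Il2 (3.5 ± 0.30) and Il21 (3.44 ± 0.54) rose in the same cells. Il2 was at 4.58, 61.1, 21.1 and 28.7 CPM in high cells and 2.82, 3.12, 2.47 and 1.79 CPM in the others. Il21 was at or below 1.06 CPM over all cells of each library, and in replicate 1 its high and other cells were close, at 0.572 and 0.528 CPM.

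In cells high for the granzyme score (Gzma, Gzmb, Gzmc, Gzmf, Prf1), 4 members rose and 1 fell, where 17.9% of all genes were called. Il12rb2 was at 15.7, 17.2, 25.8 and 22.9 CPM in high cells and 9.54, 6.98, 11 and 8.32 CPM in the others, a rise of 1.28 ± 0.10 (adjusted p = 6.25e-07). Il2ra rose by 1.24 ± 0.046 (adjusted p = 1.35e-10), with 163, 140, 118 and 134 CPM against 65.9, 58.6, 56.0 and 62.3 CPM. Thus Il2ra rose by nearly the same amount in both effector scores, whose high cells overlapped by 14%. Il7r rose by 0.96 ± 0.059 (adjusted p = 3.77e-08), from 19.4, 15.1, 34.8 and 46.5 CPM to 31.9, 31.0, 68.2 and 83.1 CPM, higher in 4 of 4 libraries. Il2rb rose by 0.31 ± 0.040, and Il18r1 fell by 0.63 on the log2 scale, from 100, 84.1, 77.9 and 84.7 CPM to 55.2, 53.9, 43.6 and 61.1 CPM.

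In cells high for the memory and egress score (Klf2, S1pr1, S1pr4, Klf3 and Ly6c2 among its genes), 3 members rose and 3 fell, where 28.1% of all genes were called. Ifngr1 was at 486, 477, 402 and 312 CPM in high cells and 260, 244, 272 and 230 CPM in the others, a rise of 0.68 ± 0.077 (adjusted p = 0.000405). Il7r (0.64 ± 0.13) and Il18r1 (0.45 ± 0.066) rose in 4 of 4 libraries as well. The level of Il7r in high over other cells was 1.67, 1.94 and 1.95 in aPD-1 replicates 1, 2 and 3 but only 1.11 in IgG. Il2ra was at 31.0, 23.4, 42.5 and 53.6 CPM against 80.9, 71.6, 64.8 and 71.5 CPM, a fall of -0.94 ± 0.17 (adjusted p = 0.00300). Il21r (-0.55) and Il2rb (-0.33) fell too. Cells high for the precursor score (Tcf7, Slamf6, Id3, Lef1, Bach2, Cxcr5) had 2 members higher and 3 lower, where 26.7% of all genes were called. Il18r1 rose by 0.47 ± 0.051 (adjusted p = 6.66e-06), and Il2ra fell by 0.92 and Il2rb by 0.51 on the log2 scale. Il12rb2 (-0.91, adjusted p = 4.24e-05) was also called, but at 2000 UMIs per cell it was at -0.32 and not called (adjusted p = 0.539). Il7r was at 51.3, 34.6, 42.7 and 59.1 CPM in precursor-high cells and 18.1, 15.5, 38.1 and 49.5 CPM in the others. Its rise of 0.63 ± 0.16 (adjusted p = 0.00857) was not called without aPD-1 replicate 1 (0.39, adjusted p = 0.0616) or with DESeq2 (0.0804). Precursor-high and memory-high cells had fewer UMIs than the others in each library, with median ratios of 0.730 to 0.935 and 0.675 to 0.897.

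**Figure D3:**
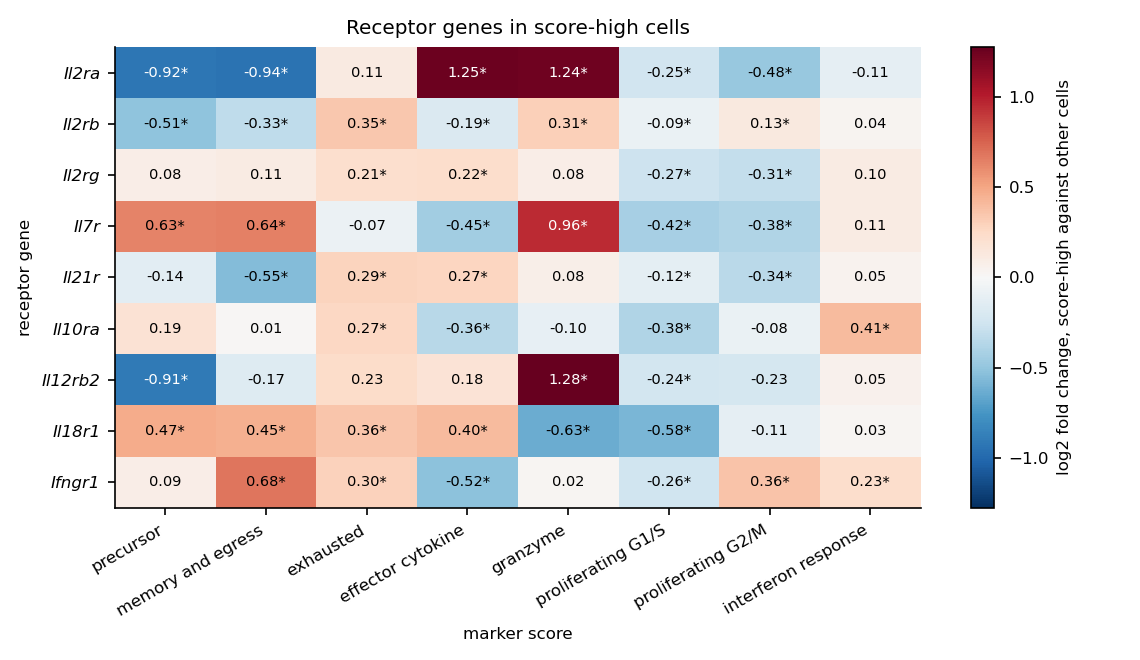
Heat map of the log2 fold change of each receptor gene (rows) in score-high against the other cells for 8 marker scores (columns), with a star where edgeR's adjusted p was under 0.05. Il2ra, Il12rb2 and Il7r rise with the granzyme score, Il2ra falls with the memory and egress and precursor scores, and all 9 genes are lower with the G1/S score.

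In cells high for the exhausted score (Pdcd1, Havcr2, Lag3, Tigit, Entpd1, Tox), 6 members rose and none fell, where 37.6% of all genes were called. Il2rb was at 570, 562, 509 and 418 CPM in high cells and 432, 395, 406 and 332 CPM in the others, a rise of 0.35 ± 0.030 (adjusted p = 3.88e-08). Il18r1 (0.36), Ifngr1 (0.30), Il21r (0.29), Il10ra (0.27) and Il2rg (0.21) rose too, and all were higher in 4 of 4 libraries. In sgNT cells Il21r was not called (adjusted p = 0.0799). At 2000 UMIs per cell Il10ra (adjusted p = 0.147), Ifngr1 (0.114) and Il2rg (0.362) were no longer called. In interferon-high cells (Ifit1, Ifit3, Isg15, Rsad2, Oasl2), where 11.7% of all genes were called, Il10ra (0.41, adjusted p = 0.000342) and Ifngr1 (0.23, 0.000497) rose. Neither was called at 2000 UMIs per cell, with adjusted p at 0.986 and 0.692. In IgG the limit of this score was -0.0913, below the library mean, and 10803 IgG cells lay within 0.1 SD of it. Part of the 1150 interferon-high IgG cells was therefore cut from cells of nearly equal score, and which of them fell in the class is arbitrary.

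The proliferation scores were taken as G1/S and G2/M separately. In G1/S-high cells (Mcm3, Mcm5, Mcm6, Pcna, Tyms, Gins2) all 9 members were lower, where 44.2% of all genes were called in either direction. Il18r1 fell by 0.58 ± 0.060 on the log2 scale (adjusted p = 8.52e-07), from 99.5, 85.2, 76.4 and 85.9 CPM to 60.4, 48.3, 59.4 and 58.5 CPM, and Il7r (-0.42), Il10ra (-0.38), Il2rg (-0.27), Ifngr1 (-0.26) and Il2ra (-0.25) were also called. Of these, Il10ra (adjusted p = 0.512) and Il2ra (0.265) were not called at 2000 UMIs per cell, and in sgNT cells Il7r (0.153), Il10ra (0.0728) and Il2ra (0.0788) were not. Il12rb2 (-0.24), Il21r (-0.12) and Il2rb (-0.09) were near the threshold. The call for Il12rb2 was lost without IgG (adjusted p = 0.190), replicate 1 (0.0784) or replicate 2 (0.0686), that for Il21r without IgG (0.0807), replicate 2 (0.0720) or replicate 3 (0.203), and that for Il2rb without IgG (0.249) or replicate 3 (0.203). In G2/M-high cells (Mki67, Top2a, Ccnb1, Birc5, Cenpf, Ube2c), where 41.5% of all genes were called, 4 members fell and 2 rose. Il2ra (-0.48), Il7r (-0.38), Il21r (-0.34) and Il2rg (-0.31) fell, of which Il7r (adjusted p = 0.595) and Il21r (0.0699) were not called in sgNT cells. Ifngr1 rose by 0.36 ± 0.043 (adjusted p = 1.63e-05), with 374, 341, 315 and 278 CPM against 263, 250, 277 and 231 CPM. Il2rb rose by 0.13, but not at 2000 UMIs per cell (adjusted p = 0.167) or with the highest 20% of cells (0.259). Ifngr1 was therefore lower in G1/S-high and higher in G2/M-high cells. Both kinds of proliferating cells had more UMIs than the others, with median ratios of 1.33 to 1.57, whose part in these values was not tested beyond the thinned fits.

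**Figure D4:**
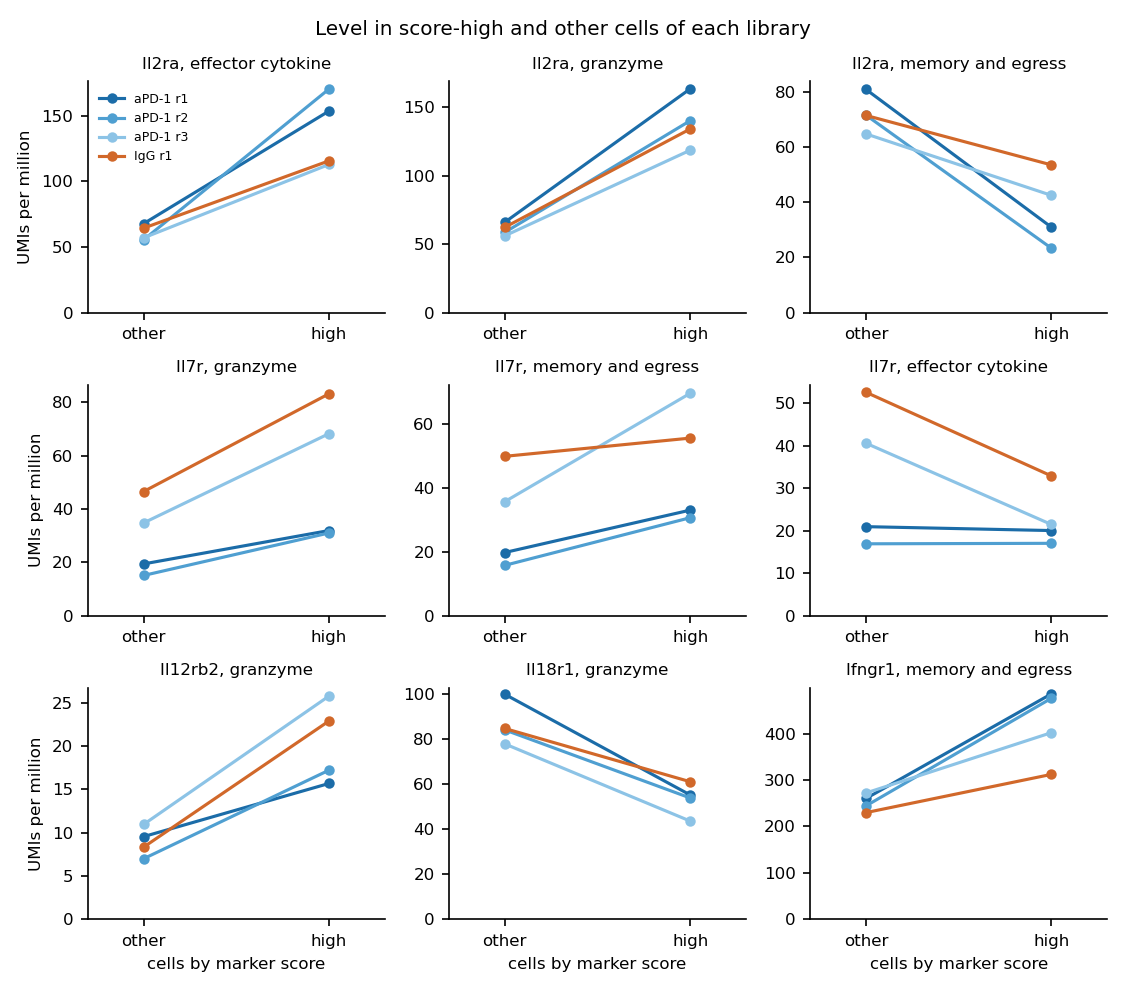
Level in CPM of a receptor gene in the other and in the score-high cells of each library, joined by 1 line per library, for 9 pairs of a gene and a score on axes that start at 0. Il2ra rises in 4 of 4 libraries with the effector cytokine and granzyme scores and falls in 4 of 4 with the memory and egress score, where Il7r and Ifngr1 rise.

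Partner chains, transducers and responses of the same pathways were listed with the receptors. Over the 8 scores, 118 tests of partner receptors gave 28 rises and 31 falls, 112 tests of JAKs, STATs and genes downstream of the IL-18 receptor 31 rises and 29 falls, and 72 tests of feedback and response genes 30 rises and 17 falls, beside the 11.7% to 44.2% of all genes called in a single score. For ligands, 39 tests gave 8 rises and 13 falls, among them Il10 in G2/M-high cells (-1.43 ± 0.16) and Il2 in G1/S-high cells (-1.30 ± 0.16). In G1/S-high cells none of the transducers rose and 13 of 14 fell, where 22.3% of all genes fell, with a median of -0.29 against -0.03 over all genes, the same direction as the receptors. Stat2 (0.93 ± 0.11), a transducer of interferon signals, rose in interferon-high cells, and Gbp2, an interferon-gamma response gene, rose by 0.92 ± 0.14. In IgG, part of that class was cut among cells of nearly equal score, as given above. Cish and Socs2, feedback genes induced by STAT5, fell by 0.75 and 1.07 on the log2 scale in precursor-high cells, while 5 of the 9 feedback and response genes rose there and the list's median was 0.22 against 0.01 over all genes. Socs3, induced by STAT3, rose by 0.87 ± 0.11 in memory-high cells, while Stat3 fell by 0.59. Il6ra, the IL-6 receptor chain, rose by 2.79 ± 0.39 in memory-high cells and Csf2rb by 1.88 ± 0.32 in granzyme-high cells, although both were below 1.2 CPM in every library.

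The second chains of the receptors were followed over 32 sums of a cluster and library, centred within each library. Il18r1 went with Il18rap at a Pearson r of 0.74 and Il12rb2 with Il12rb1 at 0.63, whereas Il10ra went with Il10rb at 0.36. Ifngr2 had 42 UMIs in all 4 libraries together and 0 in replicate 1, where Ifngr1 had 13579, too few to relate these chains over clusters. Il2rb and Il15ra, both parts of the IL-15 receptor, gave -0.35. These correlations are descriptions over sums that share libraries and depth.

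Among pairs of members, Il2ra and Il21r were most alike over the same 32 sums, at r = 0.83, followed by Il7r and Ifngr1 at 0.72 and by Il2rb and Il12rb2 at 0.60. Il21r and Ifngr1 (-0.75), Il2rb and Il18r1 (-0.63) and Il2ra and Ifngr1 (-0.61) were most opposed. Without the clusters that had under 20 cells in a library, the first 3 values became 0.79, 0.74 and 0.63 over 28 sums, and that of Il2rg and Il18r1 changed from 0.31 to 0.77. Most opposed over the 28 sums were Il21r and Ifngr1 (-0.83), Il2rb and Il18r1 (-0.79) and Il2ra and Il7r (-0.71). Il2ra and Ifngr1 followed at -0.68. Among 7083 genes with a mean of at least 10 CPM, the pattern of Il2ra was most like those of Ybx3 (0.94), Itgav and Hk2, an integrin chain and a hexokinase. Il2rb was most like Gm36723 (0.95), Osgin1 and Cd244a, and Il12rb2 like F2r (0.79), Adam8 and Frmd4b. Il7r was most like Rnf167 (0.89), Jak1 (0.89), which encodes its own kinase partner, and Nipal3. Ifngr1 was most like Vim (0.93), Lgals1 and Dok2, Il21r like Ptprs (0.97), Nrip1 and Setbp1, and Il18r1 like Arhgef3 (0.85), Abhd2 and Foxp1. Il10ra was most like Tapbp (0.86), Etnk1 and Uba7, and Il2rg like Chmp4b (0.92), Rps27 and Mrpl30.

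Receptors were then paired within single cells. With each cell at 2000 UMIs, the share of cells with both genes was divided by the product of the 2 shares, so that 1 is the value for independent genes. Il7r and Il12rb2 had the highest ratio of the 36 pairs, at 2.72 ± 0.48 (SD, n = 4), with 3.17, 3.11, 2.26 and 2.34 in aPD-1 replicates 1, 2, 3 and IgG. The counts behind it were small, with 5, 3, 25 and 45 cells against 1.58, 0.97, 11 and 19.2 for independent genes. Of these 78 cells, 45 (57.7%) were in the granzyme-like cluster, which held 33.4% of all thinned cells. Inside that cluster the ratio was 1.90, 2.51, 2.46 and 1.99 in aPD-1 replicates 1, 2, 3 and IgG, from 2, 1, 16 and 26 cells. Outside it the ratio was 4.39, 3.45, 1.87 and 2.34, from 3, 2, 9 and 19 cells, and these ranges overlapped. The difference between inside and outside was not tested. The start windows of both genes are those printed above.

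Other pairs lay closer to 1. Il2ra and Il12rb2 gave 1.40 ± 0.25, Il21r and Il10ra 1.19 ± 0.078 and Il2ra and Il21r 1.11 ± 0.034, each above 1 in 4 of 4 libraries, but Il2ra and Il12rb2 were at 0.995 with cells at 1000 UMIs. Inside the granzyme-like cluster that pair was at 1.80, 0.847, 0.847 and 1.07 in aPD-1 replicates 1, 2, 3 and IgG, from 5, 1, 8 and 16 cells, and outside it at 1.28 to 1.69. Il21r and Ifngr1 were at 0.965 ± 0.016 and Il2ra and Ifngr1 at 0.908 ± 0.092, below 1 in every library. The chains of the high-affinity IL-2 receptor were found together about as often as independent genes would be. Il2ra and Il2rb gave 1.01 ± 0.016, Il2ra and Il2rg 1.03 ± 0.052 and Il2rb and Il2rg 0.989 ± 0.026. All 3 chains were seen in 2.09%, 1.96% and 2.52% of aPD-1 cells and 1.84% of IgG cells, 1.0 to 1.12 times the product of their shares. A median of 2 of the 9 receptors was seen per cell in each library.

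**Figure D5:**
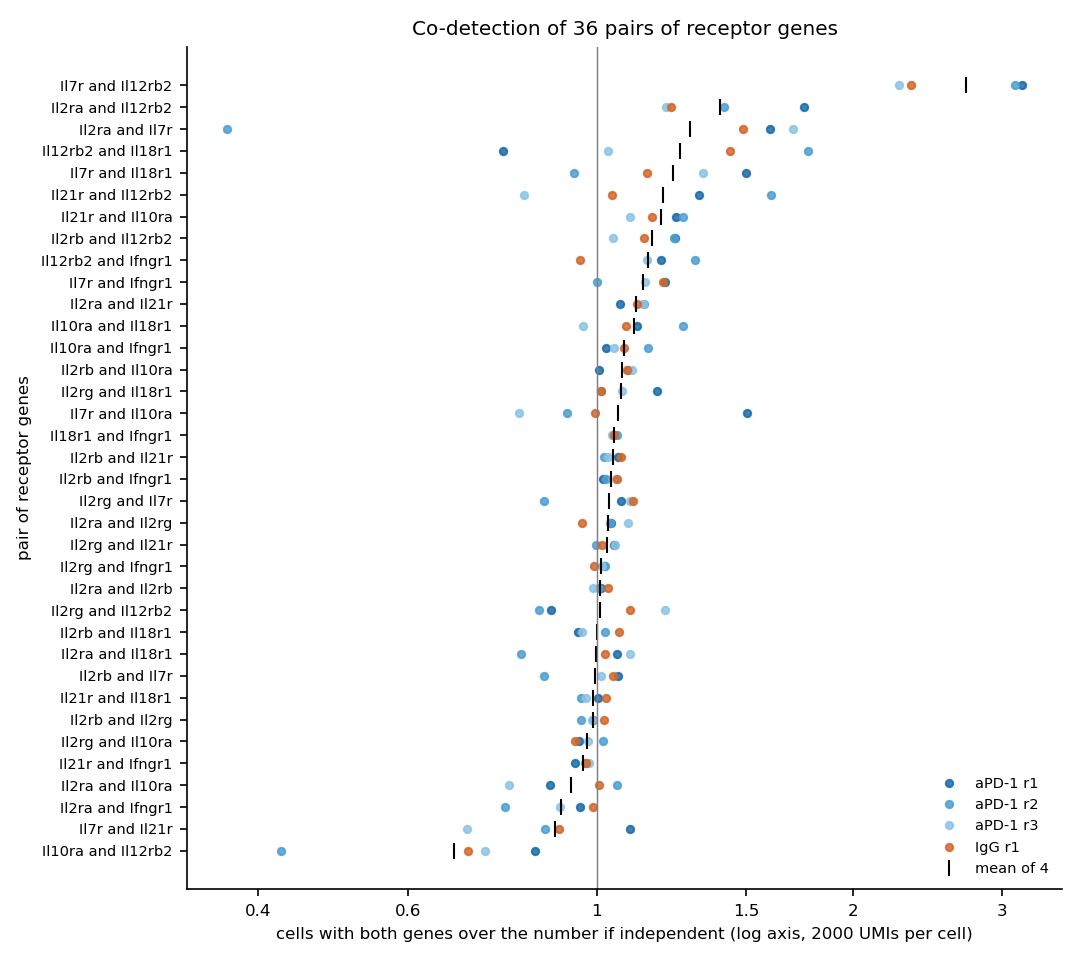
Number of cells with both genes over the number for independent genes (log axis) for the 36 pairs of receptor genes, with cells at 2000 UMIs. Coloured points are libraries, the black tick is their mean and the grey line marks 1, and Il7r with Il12rb2 stands highest with a mean of 2.72.

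The cells carried 276 guides, nontargeting ones included, 83 genes were targeted, and 2685 cells had a nontargeting guide (sgNT). To ask whether a metabolic knockout changed a receptor, cells were summed per target and aPD-1 library, and 82 targets with 10 or more cells in a library were set against sgNT. Of 738 tests of members 1 passed, where 0.05% of all gene and target tests did. Il2rg was higher in sgDhodh cells, whose target encodes an enzyme of pyrimidine synthesis, by 0.83 ± 0.21 (edgeR adjusted p = 0.0454). This rests on 1 sum of 11 cells with 56 Il2rg UMIs in aPD-1 replicate 3, at 443 CPM, against 231 CPM in sgNT cells of that library. In IgG, which was outside the fit, 39 sgDhodh cells were at 230 CPM and sgNT cells at 193 CPM, and with IgG in the fit no member passed (0.52, adjusted p = 0.190). The call was also lost without aPD-1 replicate 2 (adjusted p = 0.118), and without replicate 3 no sgDhodh sum remained and no member passed. At an unadjusted p under 0.05 there were 38 member tests (5.15%), against 3.71% of all tests. Taking for each receptor the target with its smallest p-value, the next were Il7r in sgKmt2c cells (-1.48 ± 0.50), Il18r1 in sgCyp4a32 cells (0.73 ± 0.25) and Il21r in sgG6pc cells (-0.41 ± 0.14), each with an adjusted p of 1. Il7r in sgKmt2c cells, whose target encodes a histone methyltransferase, was at 1.77, 10.4 and 16.5 CPM in aPD-1 replicates 1, 2 and 3 (2, 9 and 16 UMIs) against 24.2, 14.9 and 37.1 CPM in sgNT cells. In IgG, the only library outside the fit that picked this target, Il7r was also lower, at 23.0 CPM (24 UMIs) against 47.3 CPM. Without the filter on low counts the adjusted p of Il2rg in sgDhodh cells rose to 0.173 and 4 other tests passed, where 0.148% of all gene and target tests did in that fit, Il7r in sgKmt2c (-1.5, adjusted p = 0.000274), sgNsd1 (1.09, 0.00654) and sgPik3cd (0.87, 0.00419) cells and Il2ra in sgCs cells (-0.79, 0.0329).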

How the data were processed

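Gene expression and guide libraries were read out per cell in 4 channels. The authors deposited raw UMI counts per gene, guide and barcode from Cell Ranger 3.1.0 (mm10), and their guide calls. The gene annotation release was not given in the sources used here. Cells with exactly 1 guide were kept when their log UMIs were at most 3 median absolute deviations from the median and at most 10% of UMIs were mitochondrial. Library pairs shared 3 to 18 barcodes. Kept totals were 48182760 to 88543446 UMIs. The members and gene lists were chosen with earlier results of these data known, and the genes named from them by fixed rules (3 most alike, 2 largest changes).

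Counts were summed and tested with edgeR 4.0.16 (filterByExpr, TMM, quasi-likelihood, Benjamini-Hochberg at 0.05 over all genes). Knockout tests used 1 additive fit of 229 sums and 9419 genes, whose statistic was checked against edgeR on simulated data. DESeq2 1.42.0 served as an alternative. Clusters came from Seurat 5.3.0 (2000 variable genes without cytokine genes, 15 components, resolution 0.3) in R 4.3.3. Correlations and shares used Python 3.11.15. No doublet caller was run beyond the guide and UMI limits. Other settings are given in the closing section. Some genes of the lists are not reported here by name.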

Additional observations from a re-analysis of the deposited data

Results flagged for a closer look

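Ifngr1 and Il18r1 each moved one way in IgG and the other way in all 3 aPD-1 libraries for 1 score. The level of Ifngr1 in granzyme-high over the other cells was 1.049 in IgG and 0.907 to 0.971 with aPD-1. For Il18r1 in G2/M-high cells it was 1.036 in IgG and 0.775 to 0.932 with aPD-1. The difference between treatments was not tested in either case, and neither gene passed the test of its score over the 4 libraries.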

How the results depend on the processing

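The treatment test called 5 genes with DESeq2, 283 with a title stem term, and 0 to 3316 when each aPD-1 replicate was left out, the highest without replicate 3. The smallest treatment differences changed sign. That of Il2ra was -0.014 with at least 5 UMIs of the guide, -0.0081 with no filter on low counts, -0.0014 with no UMI limits and -0.152 with the stem term. That of Il18r1 was -0.0468 in sgNT cells and -0.153 with the stem term. Without each aPD-1 replicate they ranged from -0.0696 to 0.0715 (Il2ra), -0.0727 to 0.0773 (Il2rg), -0.0833 to 0.210 (Il12rb2) and -0.063 to 0.113 (Il18r1). Of the 47 score calls, 17 held under all 11 alternatives, and 27 under all of them except the fit with no library block, which kept 21. None changed sign. At 2000 UMIs per cell 35 of the 47 held and in sgNT cells 32. Knockout calls of members were 0 with IgG added or at least 5 UMIs of the guide, 4 with no filter on low counts (where 0.148% of all tests passed), and 0 to 1 without each aPD-1 replicate. The level in the highest cluster over all cells in sgNT cells was 1.95 (Il2ra), 1.16 (Il2rg), 1.42 (Il7r), 1.17 (Il21r), 1.34 (Il18r1) and 1.27 (Ifngr1), where only clusters with 20 cells in every library were ranked. The memory and egress-like cluster was then too small to rank, and the highest cluster became the granzyme-like one for Il7r, Ifngr1 and Il10ra, the precursor-like one for Il18r1 and the effector cytokine-like one for Il21r. At resolution 0.5 the level was 1.37 (Il2rg) and 1.83 (Il18r1), and Il12rb2 no longer shared its highest cluster with Il2rb, Il18r1 with Il7r and Ifngr1, or Il2rg with Il2ra. Without aPD-1 replicate 1 that of Il2rg became the granzyme-like one. At 1000 UMIs the co-detection ratio of Il2ra and Il12rb2 was 0.995 and that of Il10ra and Il12rb2 1.15. The cause was not tested for these changes. Co-detection inside and outside cluster 0, pair correlations over 28 sums, and fits without the 24 cells of other types were chosen after seeing the data. No paired analysis was possible because no label links the single IgG library to an aPD-1 library.

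With 1 IgG library, no treatment difference can be separated from that library. Counts of Il12rb2 and Il7r per cell are low, which limits co-detection to few cells, and levels in score-high cells rest on classes that differ in depth. Fits left with 1 library per group in part assume that it varies like the others.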
